A study of Homo sapiens with 18 samples.

Results

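The genes described here encode the secreted inhibitors of WNT signalling of the SFRP and DKK families, together with WIF1. They were listed by gene name and not by a cut on measured values, although earlier results of these data were known. The genes are SFRP1, SFRP2, SFRP4, SFRP5, FRZB, DKK1, DKK2, DKK3, DKK4 and WIF1. All 10 had a row among the 57133 genes of the count table. RNA-seq was performed on PGP1, an established human induced pluripotent stem cell (PSC) line, without a deletion (WT) and on a pair of homozygous PCGF6-knockout (KO) lines made from it with CRISPR-Cas9 guides against exon 1, here clone 1 and clone 2. All cells were kept in mTeSR1 medium on Matrigel, and each group gave 2 libraries. Each knockout genotype is 1 cloned line, so an effect of PCGF6 loss and a property of that line cannot be told apart within a clone. PCGF6 is a subunit of the Polycomb repressive complex PRC1.6, and the comparison asks how the transcriptome of PSCs differs without it.

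WNT proteins bind Frizzled receptors and the co-receptors LRP5 and LRP6 at the cell surface, which stabilizes β-catenin and lets it act with TCF and LEF factors on target genes. SFRP proteins, FRZB (also known as SFRP3) and WIF1 bind WNT proteins outside the cell, whereas DKK1, DKK2 and DKK4 bind LRP5 and LRP6. In PSCs, WNT signalling is known to promote exit towards mesendoderm, and DKK1 and DKK4 are known transcriptional targets of the pathway that limit it by feedback.

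The libraries held between 15877396 and 18918609 counts. PCGF6 itself was counted 268 and 300 times in WT, 99 and 103 times in clone 1 and 187 and 159 times in clone 2. Its log2 fold change was −1.67 (SE 0.14, adjusted p = 1.0e-10) in clone 1 and −0.77 (SE 0.13, adjusted p = 1.2e-05) in clone 2, and counts over the whole gene do not show the state of the deleted exon. Counts were scaled to CPM, the reads of a gene per 1e6 reads of its library, with edgeR's TMM factors, and groups were compared by the quasi-likelihood test of edgeR, with p-values adjusted by Benjamini-Hochberg over the 17672 genes that its filter on low counts left. A call needed an adjusted p below 0.05 together with a log2 fold change beyond 0.6 in either direction, and every adjusted p given is from this test unless another tool is named. Each SE given is the absolute log2 fold change divided by the square root of that test's F statistic. The sources used here do not say whether the 2 libraries of a group came from separate cultures, so these p-values measure the spread between libraries, which may be technical. The comparison over both clones takes the KO libraries as 1 group, although they come from only 2 cloned lines. Its spread therefore also holds differences between the clones, unlike that of the comparisons of each clone with WT. In bulk RNA, fewer cells of a type and less RNA per cell cannot be told apart.

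Loss of PCGF6 was accompanied by changes in both directions among these inhibitors. SFRP1 and SFRP2, the leading inhibitor transcripts of WT cells, fell, by 38.5-fold and 1.58-fold, while DKK1, DKK2, DKK4 and SFRP4, which had between 0 and 4 counts in a WT library, rose. SFRP5, FRZB, DKK3 and WIF1 did not pass the thresholds. Thus 4 of the 10 genes were called higher and 2 lower in the 4 KO libraries against the 2 WT libraries, where 14.9% of all tested genes were called higher and 8.70% lower. SFRP4, DKK1, DKK2 and DKK4 entered the test only through the KO libraries, in which they were high, so their number is a description. In 5 genes (SFRP4, FRZB, DKK1, DKK2 and DKK4) all KO libraries lay above both WT libraries and in SFRP1 and SFRP2 all lay below. Of all tested genes, 29.5% showed the first pattern and 27.6% the second.

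**Figure D1:**
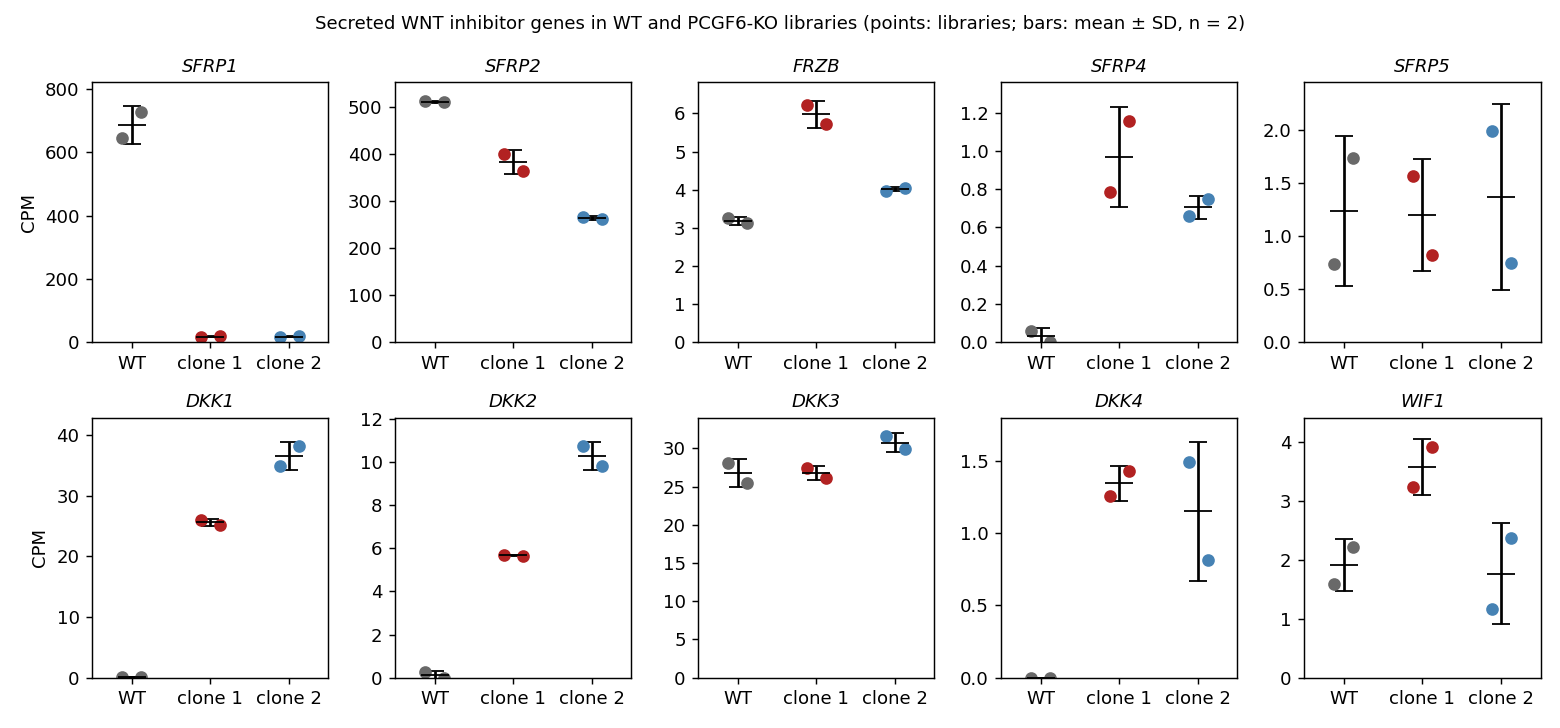
CPM (vertical axes, linear and starting at 0) of the 10 genes in WT, clone 1 and clone 2; points are libraries and bars are the mean ± SD of 2 libraries. SFRP1 is at 644 and 728 CPM in WT and between 16.2 and 19.7 CPM in the KO libraries, while DKK1 is at 0.123 CPM or less in WT and between 25.2 and 38.2 CPM in the KO libraries.

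Levels were compared between genes in TPM, a share of the library's transcripts that also divides by gene length. In WT, SFRP2 led with 1117 ± 1.62 TPM (SD, n = 2) and was 75th among all genes. SFRP1 followed with 642 ± 57.3 TPM and was 167th. DKK3 was at 23.6 ± 1.55 TPM and FRZB at 4.48 ± 0.125 TPM. The libraries of WIF1 (3.58 ± 0.835 TPM) and SFRP5 (3.00 ± 1.72 TPM) overlapped, and DKK1, DKK2, SFRP4 and DKK4 were all below 0.26 TPM and likewise not separated from their neighbours in the order. In both clones SFRP2 still led, at 821 ± 46.2 TPM in clone 1 and 534 ± 4.76 TPM in clone 2. DKK1 had become the second, at 50.7 ± 0.640 and 68.1 ± 4.66 TPM, ahead of DKK3 at 23.1 ± 0.595 and 25.0 ± 0.920 TPM and of SFRP1 at 16.5 ± 2.48 and 15.3 ± 1.04 TPM. The order of these leading genes was separate in every library of both clones. Below them, WIF1 overlapped DKK4 in clone 1, and in clone 2 DKK4 overlapped FRZB and WIF1 overlapped SFRP5.

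SFRP1, whose product has a Frizzled-like cysteine-rich domain that binds WNT proteins, showed the deepest decrease of the 10 genes. It lies on chromosome 8 (chr8:41261962-41309473, reverse strand, GRCh38) with 4 merged exons in GENCODE release 44, and only genes within its introns overlap it. Its counts were 10494 and 12156 in the WT libraries, 309 and 359 in the clone 1 libraries, and 307 and 297 in the clone 2 libraries. This corresponds to 686 ± 59.4, 18.0 ± 2.54 and 17.7 ± 1.12 CPM (SD, n = 2), with no overlap between WT and either clone. The log2 fold change was −5.27 (SE 0.09, adjusted p = 7.5e-09) over both clones, −5.26 (SE 0.09, adjusted p = 3.1e-25) in clone 1 and −5.28 (SE 0.09, adjusted p = 2.8e-25) in clone 2. Over both clones it was the 4th lowest fold change of all tested genes. Of the 2053 tested genes with at least 100 TPM in WT it was the lowest over both clones, followed by LCK at −3.43 and TSSC2 at −3.37. In clone 1 it was the 10th lowest of all tested genes and the 2nd lowest of these 2053. In clone 2 it was the 22nd lowest of all and the lowest of these 2053. SFRP1 moved from rank 167 among all genes in WT to 8231 in clone 1 and 8315 in clone 2, and it still had between 297 and 359 counts in every KO library.

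SFRP2, a close relative of SFRP1, was the most abundant of the 10 genes in every library. It lies at chr4:153780591-153789083 on the reverse strand, in 3 merged exons that no other annotated gene overlaps. It was counted 8334 and 8489 times in WT, 7643 and 6621 times in clone 1, and 4829 and 4192 times in clone 2. The means were 510 ± 2.20, 382 ± 25.1 and 264 ± 3.58 CPM, and the groups followed each other without overlap. Over both clones the log2 fold change was −0.66 (SE 0.16, adjusted p = 0.0119). This call was lost when 1 library was left out: without WT replicate 1 (−0.66, adjusted p = 0.0782) or WT replicate 2 (−0.66, adjusted p = 0.0821) it missed the p threshold, and without clone 2 replicate 1 (−0.57, adjusted p = 0.0219) or clone 2 replicate 2 (−0.57, adjusted p = 0.0178) the fold threshold. In clone 1 alone the change of −0.42 (SE 0.06, adjusted p = 7.9e-07) was under the fold threshold, and in clone 2 alone SFRP2 was called lower at −0.95 (SE 0.06, adjusted p = 1.5e-13).

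The remaining relatives were expressed at low levels. All are on the reverse strand, FRZB at chr2:182833275-182866637, SFRP4 at chr7:37905932-38025695 and SFRP5 at chr10:97766751-97771999. FRZB, first known from cartilage, was counted 53 and 52 times in WT, 119 and 104 times in clone 1, and 72 and 65 times in clone 2. All 4 KO libraries lay above WT, with means of 3.19 ± 0.0981, 5.97 ± 0.356 and 4.01 ± 0.0567 CPM. FRZB was not called over both clones (log2 fold change 0.65, SE 0.25, adjusted p = 0.0692), although it was without clone 2 replicate 1 (0.76, adjusted p = 0.0444) and as the mean of the separate effects of the clones (0.62, adjusted p = 0.00478). It was called higher in clone 1 (0.91, SE 0.19, adjusted p = 3.8e-04) and not in clone 2 (0.33, SE 0.21, adjusted p = 0.195). SFRP4 had 1 and 0 counts in the WT libraries, 15 and 21 counts in those of clone 1, and 12 and 12 counts in those of clone 2. Its level in KO was 27.7-fold that of WT, with a 95% exact interval for counting error only of 4.78- to 1111-fold (adjusted p = 0.00200), and no KO library exceeded 1.16 CPM. This fold rests on 1 read in WT replicate 1, and the fitted log2 fold change of 4.49 became 3.63 without WT replicate 2 (adjusted p = 0.0265) and 6.90 without WT replicate 1 (adjusted p = 0.0113). SFRP5 had 12 and 29 counts in the WT libraries, 30 and 15 counts in those of clone 1, and 36 and 12 counts in those of clone 2. These libraries overlapped throughout, and the log2 fold change of 0.06 had an interval of 2 SE to either side from −0.93 to 1.04 (adjusted p = 0.941).

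DKK1, the best-known LRP5 and LRP6 antagonist, went from near absence to the second place among the 10 genes. It lies at chr10:52314281-52318042 on the forward strand. It had 2 and 2 counts in the WT libraries, 497 and 458 counts in those of clone 1, and 633 and 613 counts in those of clone 2, so that every KO library lay far above WT. The means were 0.121 ± 0.00210, 25.6 ± 0.565 and 36.6 ± 2.33 CPM. The KO level was 254-fold that of WT (95% exact counting interval 99.0- to 932-fold, adjusted p = 1.2e-06), with 211-fold in clone 1 and 301-fold in clone 2 (adjusted p = 3.9e-19 and 2.0e-20). Among all genes DKK1 moved from rank 23391 in WT to 3990 in clone 1 and 2917 in clone 2. An exon of DKK1 overlaps the antisense RNA gene PRKG1-AS1, which had between 0 and 12 counts in a library. The strand setting of the counting is not given in the sources used here, so reads over that overlap cannot be assigned.

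The sequence before the start is shown for DKK1 and SFRP2, the abundant genes of either direction among the RefSeq promoter entries used here. That of WIF1, which differed between the clones, is shown for comparison. The entries (assembly GRCh38.p14) covered 6 of the 10 genes, namely DKK1, SFRP2, SFRP4, SFRP5, FRZB and WIF1. Each window of 300 bases, from 250 before to 50 after the start, was searched on both strands for CACGTG (the E-box bound by MAX), GCGGGAA (an E2F6 site, TTCCCGC on the other strand) and CTTTGAA or CTTTGAT (TCF and LEF sites). The sequences below are the 250 bases before the start, from 5′ to 3′ on the gene's strand, with a match in capitals.
DKK1, chr10:52314031-52314280, forward strand: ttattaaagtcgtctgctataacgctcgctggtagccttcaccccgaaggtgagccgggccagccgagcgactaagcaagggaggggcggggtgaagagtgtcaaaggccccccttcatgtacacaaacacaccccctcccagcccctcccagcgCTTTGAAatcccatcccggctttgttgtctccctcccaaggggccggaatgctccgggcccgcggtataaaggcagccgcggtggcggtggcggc
SFRP2, chr4:153789084-153789333, reverse strand: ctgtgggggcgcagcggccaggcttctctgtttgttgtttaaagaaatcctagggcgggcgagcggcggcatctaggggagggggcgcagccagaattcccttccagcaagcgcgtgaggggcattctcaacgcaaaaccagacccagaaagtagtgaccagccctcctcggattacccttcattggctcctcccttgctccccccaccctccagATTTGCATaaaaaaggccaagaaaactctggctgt
WIF1, chr12:65121306-65121555, reverse strand: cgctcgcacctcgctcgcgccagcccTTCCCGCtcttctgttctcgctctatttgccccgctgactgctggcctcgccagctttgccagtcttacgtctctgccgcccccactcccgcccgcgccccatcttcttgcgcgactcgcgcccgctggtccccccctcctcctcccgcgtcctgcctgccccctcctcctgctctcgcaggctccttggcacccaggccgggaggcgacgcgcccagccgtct
The DKK1 window held CTTTGAA at position −95 from the start, and the WIF1 window held the E2F6 letters at −224. CTTTGAA or CTTTGAT occurred in 6.86% of the 35116 promoters used, all of this length, and in 1 of the 6 here. GCGGGAA occurred in 6.55% and in 1 of the 6, and CACGTG in 7.26% and in 0 of the 6. ATTTGCAT, the octamer of POU factors, was searched only after the SFRP2 sequence was seen. It stood at −35 in SFRP2 and occurred in 1.77% of the 35116 promoters. The 250 bases were 62.8% G or C with 18 CpG in DKK1, 57.6% with 11 CpG in SFRP2 and 71.6% with 27 CpG in WIF1. Over the same 250 bases, the median of the 35116 promoters was 58.0% with 11 CpG.

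DKK2, which can block or activate signalling through LRP6 depending on the cell, had 4 and 0 counts in the WT libraries, 109 and 103 counts in those of clone 1, and 195 and 158 counts in those of clone 2. It lies at chr4:106921802-107283806 on the reverse strand. All KO libraries were above WT and both clone 2 libraries above both clone 1 libraries, at 5.68 ± 0.0247 and 10.3 ± 0.641 CPM. The KO level was 65.2-fold that of WT (95% exact counting interval 25.3- to 240-fold, adjusted p = 1.6e-04). The fitted log2 fold change rests on 1 WT library. It was 5.96 with both, 4.98 without WT replicate 2 and 10.14 without WT replicate 1, where the remaining WT library had no count.

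DKK4, a feedback inhibitor that acts on LRP6 like DKK1, was not counted in WT and had 24 and 26 counts in clone 1 and 27 and 13 in clone 2. Its levels of 1.34 ± 0.124 CPM in clone 1 and 1.15 ± 0.480 CPM in clone 2 were at least 7.38-fold and 6.32-fold higher than WT, against 3 counts in each WT library (adjusted p = 2.5e-06 and 5.5e-06). The gene is short, with 894 bases against 2206 for DKK1, and its level per length was 6.57 ± 0.667 TPM in clone 1 and 5.28 ± 2.18 TPM in clone 2. It lies at chr8:42374063-42377229 on the reverse strand. DKK3, the divergent family member that is not an established LRP6 antagonist, was the DKK gene of WT cells. It had 458 and 426 counts in the WT libraries, 524 and 474 counts in those of clone 1, and 574 and 479 counts in those of clone 2, or 26.8 ± 1.84, 26.7 ± 0.942 and 30.8 ± 1.28 CPM. The clone 1 libraries lay within the range of WT and both clone 2 libraries above it. The log2 fold change over both clones was 0.10, with 2 SE to either side from −0.11 to 0.30 (adjusted p = 0.483). DKK3 lies at chr11:11956207-12009769 on the reverse strand and shares exon sequence with USP47 on the opposite strand, which had between 862 and 1106 counts and a log2 fold change of 0.08, so part of its reads is uncertain.

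WIF1, which binds WNT proteins through its WIF domain, moved differently in the clones. It lies at chr12:65050626-65121305 on the reverse strand. It had 26 and 37 counts in the WT libraries, 62 and 71 counts in those of clone 1, and 21 and 38 counts in those of clone 2. Both clone 1 libraries lay above all others, at 3.57 ± 0.469 CPM, and WT (1.91 ± 0.439 CPM) and clone 2 (1.76 ± 0.856 CPM) overlapped. It was not called over both clones (log2 fold change 0.49, SE 0.44, adjusted p = 0.423). In clone 1 it was called higher (0.90, SE 0.29, adjusted p = 0.0124), a call that was lost without WT replicate 1 (0.68, adjusted p = 0.113), without clone 1 replicate 2 (0.78, adjusted p = 0.0710) and with DESeq2 (0.90, adjusted p = 0.130). In clone 2 the change was −0.14 (SE 0.33, adjusted p = 0.757).

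**Figure D2:**
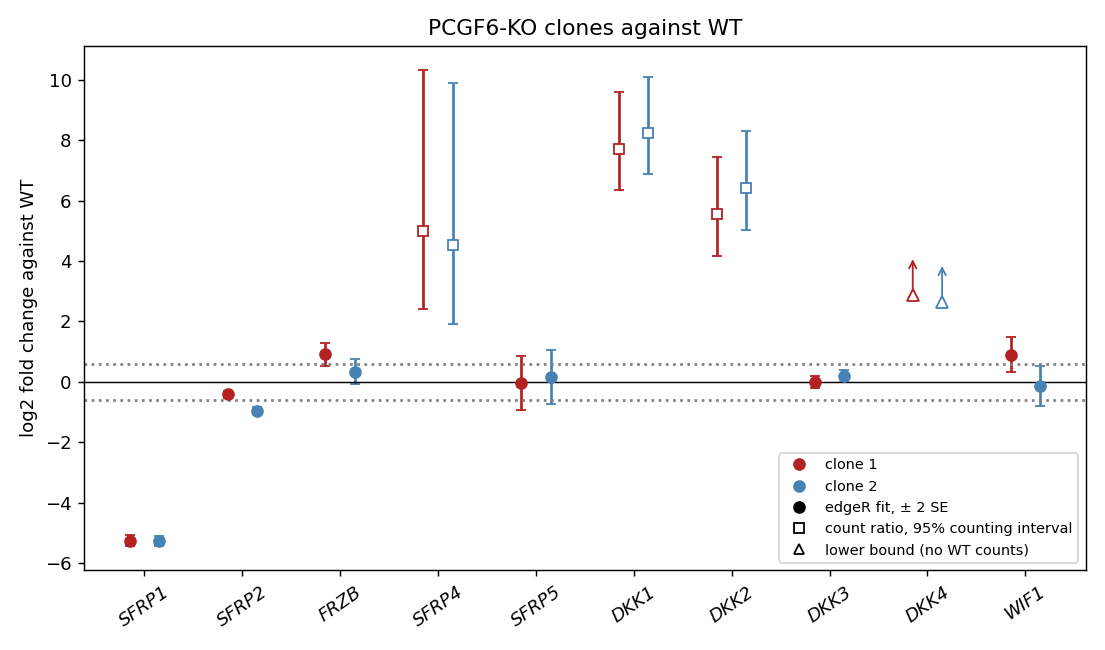
Log2 fold change against WT (vertical axis) of each gene in clone 1 (red) and clone 2 (blue). Filled circles are edgeR estimates with 2 SE to either side, open squares are count ratios with 95% exact counting intervals, open triangles with arrows are lower bounds for DKK4, and dotted lines mark 0.6 and −0.6; SFRP1 is near −5.3 in both clones.

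By clone, 6 of the 10 genes were called higher and 1 lower in clone 1, where 16.0% of all tested genes were called higher and 8.80% lower. In clone 2, 4 were called higher and 2 lower, against 16.9% and 12.5% of all tested genes. SFRP4, DKK1, DKK2 and DKK4 were called higher in each clone and entered the test only through the KO libraries, so these numbers are a description. With at least 10 counts in every library, 2 of 6 were called higher in clone 1 and 0 of 6 in clone 2. Of all 14850 genes tested under that filter, 1965 were called higher in clone 1 and 2101 in clone 2. Clone 1 and clone 2 share their WT libraries, so the clones were also compared with each other. In that comparison 1 gene was called higher in clone 2 (DKK2) and 1 lower (WIF1), where 3.73% of all tested genes were called higher and 4.14% lower. DKK2 differed by 0.86 (log2, SE 0.18, adjusted p = 8.3e-04) and WIF1 by −1.04 (SE 0.29, adjusted p = 0.0120). The WIF1 call was lost without clone 1 replicate 2 (−0.90, adjusted p = 0.0712), without clone 2 replicate 1 (−0.59, adjusted p = 0.252) and with DESeq2 (−1.02, adjusted p = 0.140). DKK1 was higher in clone 2 by 0.51 (SE 0.09, adjusted p = 2.3e-04), under the fold threshold.

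SFRP2 was lower in clone 2 than in clone 1 by −0.53 (SE 0.06, adjusted p = 1.1e-07) and FRZB by −0.57 (SE 0.18, adjusted p = 0.0286), both also under the fold threshold. Without clone 1 replicate 2 both were called, at −0.61 (adjusted p = 1.9e-09) and −0.64 (adjusted p = 0.0481). For SFRP1 no difference between the clones was detected (−0.02, 2 SE to either side from −0.23 to 0.19, adjusted p = 0.928). The intervals were wider for DKK4, from −0.98 to 0.57 (adjusted p = 0.776), and for SFRP4, from −1.36 to 0.45 (adjusted p = 0.542). DKK3 differed by 0.20 (adjusted p = 0.146) and SFRP5 by 0.21 (adjusted p = 0.798).

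Summed over each family, the SFRP genes (with FRZB) held 1766 ± 57.3 TPM in WT, 850 ± 45.1 TPM in clone 1 and 558 ± 5.50 TPM in clone 2. These sums were 2.08-fold and 3.16-fold lower in the clones than in WT. The DKK genes held 24.0 ± 1.73, 86.1 ± 0.538 and 108 ± 0.990 TPM, which is 3.59-fold and 4.52-fold the WT sum. The ranges of WT and the clones did not overlap for either family. Of the summed TPM of all 10 genes, the DKK family took 1.24 to 1.44% in the WT libraries, 8.88 to 9.41% in clone 1 and 16.0 to 16.3% in clone 2. Transcripts of SFRP genes therefore still made up at least 83.1% in every library, most of them SFRP2. Within a library, SFRP1 was 2431-fold and 2816-fold as high as DKK1 in WT (TPM), whereas DKK1 was 2.75- to 4.45-fold as high as SFRP1 in the KO libraries.

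**Figure D3:**
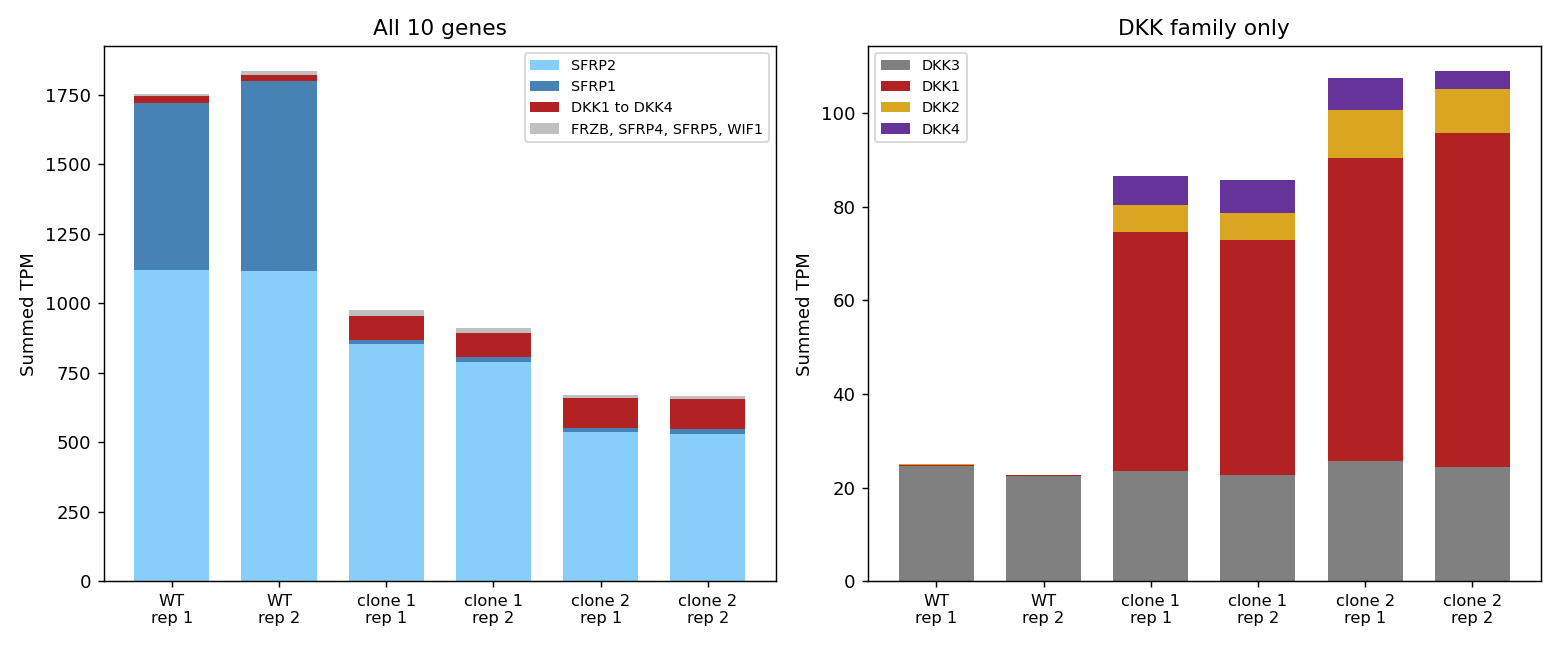
Summed TPM (vertical axes, linear from 0) in each library, stacked by gene for all 10 genes (left) and for the DKK family alone (right). The total is 1794 ± 56.4 TPM in WT, 943 ± 44.7 TPM in clone 1 and 669 ± 3.01 TPM in clone 2, and the DKK bars grow mainly by DKK1 over a DKK3 layer of 22.5 to 25.6 TPM.

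The tested genes with the most similar profiles were sought by the Euclidean distance of centred log2 CPM over the 6 libraries. Those nearest to SFRP1 were PAX8-AS1 (distance 0.755), ZNF680 (1.25) and SYP (1.35). SYP encodes the synaptic vesicle protein synaptophysin and was counted 155 and 165 times in WT and 4 to 12 times in the KO libraries. Nearest to SFRP2 were CHRDL1 (0.0938), a secreted BMP antagonist, BCAM (0.0940), a laminin receptor, and CAMKMT (0.111). Nearest to DKK1 were HOXB3 (0.302), PCAT14 (0.428) and WISP1 (0.554). WISP1 encodes a CCN-family protein first described as WNT-induced and had 0 counts in both WT libraries and 159 to 279 in the KO libraries. The 6 libraries form 3 groups, so these distances largely describe group means.

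The other genes of the WNT pathway, listed by role, moved as follows. Of 94 listed, 84 were tested, and 32 were called higher and 10 lower over both clones. Among all tested genes, 14.9% were called higher and 8.70% lower. The 84 genes had a median log2 fold change of 0.31, beside 0.00 over all tested genes. Setting the 2 genes uncounted in WT, WNT3A and WNT10B, at their lower bounds could not move this median, as both bounds lie above it. Of the 84, 11 had under 10 counts in both WT libraries and passed the filter through the KO libraries, so that a call of them could be in the higher direction alone, and 10 of the 11 were called. With at least 10 counts in every library, 21 of 70 were called higher and 9 lower. Under that filter, 1847 of all 14850 tested genes were called higher and 1263 lower. Among WNT ligands, 8 of 11 tested were called higher and 0 lower, with a median of 3.30. Of these 8, 5 had under 10 counts in both WT libraries. WNT5B was counted 2 and 7 times in WT and 1169 to 1667 times in the KO libraries (log2 fold change 8.16, SE 0.35, adjusted p = 5.7e-07). WNT3A and WNT10B were not counted in WT and were at least 52.5-fold and 28.2-fold higher in KO, against 3 counts in each WT library. Of 8 feedback target genes, 7 were called higher and 0 lower (median 4.19), of which SP5, NOTUM and LGR5 were such genes. Among them, SP5, a transcription factor gene induced by β-catenin, went from 8 and 2 counts to between 3836 and 5098 (9.68, SE 0.21, adjusted p = 1.8e-08). NOTUM, which encodes an enzyme that inactivates WNT proteins, was at 6.25 (SE 0.51, adjusted p = 2.4e-05), and LGR5, a receptor gene for R-spondins, was 108-fold higher (95% exact counting interval 19.3- to 4300-fold).

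Receptors, co-receptors and intracellular parts of the pathway had calls in both directions or none. Of the 10 Frizzled receptor genes, 3 were called higher and 2 lower (median 0.26), with FZD10 at 4.49 (SE 0.39, adjusted p = 3.6e-05), FZD1 at 2.23 (SE 0.19, adjusted p = 2.8e-05) and FZD5 at −1.55 (SE 0.11, adjusted p = 9.3e-06). The targets of DKK proteins, LRP5, LRP6, KREMEN1 and KREMEN2, were all tested and 0 were called over both clones (median 0.28). LRP6 had 1966 and 2185 counts in WT and 1728 to 2118 in the KO libraries (−0.24, SE 0.09, adjusted p = 0.0533), and LRP5 was at 0.21 (SE 0.07, adjusted p = 0.0554). KREMEN2, which encodes a DKK receptor, was called higher in clone 1 (1.17, adjusted p = 1.7e-06), not in clone 2 (0.08, adjusted p = 0.752), and differed between the clones by −1.09 (adjusted p = 1.9e-05). Among 22 intracellular components, 1 was called higher (PYGO1, a β-catenin cofactor gene, at 2.59, SE 0.21, adjusted p = 2.2e-05) and 1 lower (CTNNBIP1, whose product blocks β-catenin from TCF, at −0.78, SE 0.10, adjusted p = 3.9e-04), with a median of −0.01.

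Of 8 TCF, LEF and TLE genes, 4 were called higher and 3 lower (median 0.22), with LEF1 at 6.54 (SE 0.24, adjusted p = 3.1e-07), TCF7 at 1.92 (SE 0.10, adjusted p = 1.5e-06) and the co-repressor gene TLE2 at −2.83 (SE 0.40, adjusted p = 6.1e-04). Among 21 other secreted or membrane modulators, 9 were called higher and 4 lower (median 0.36). WLS, needed for WNT secretion, was counted 52 and 37 times in WT and 3954 to 4806 times in the KO libraries (6.51, SE 0.12, adjusted p = 1.1e-08). RSPO3, which encodes an R-spondin that enhances WNT signalling, had 1 and 0 counts in the WT libraries, 209 and 195 counts in those of clone 1, and 625 and 524 counts in those of clone 2. APCDD1, another WNT inhibitor gene, was at 4.37 (SE 0.20, adjusted p = 9.1e-07).

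**Figure D4:**
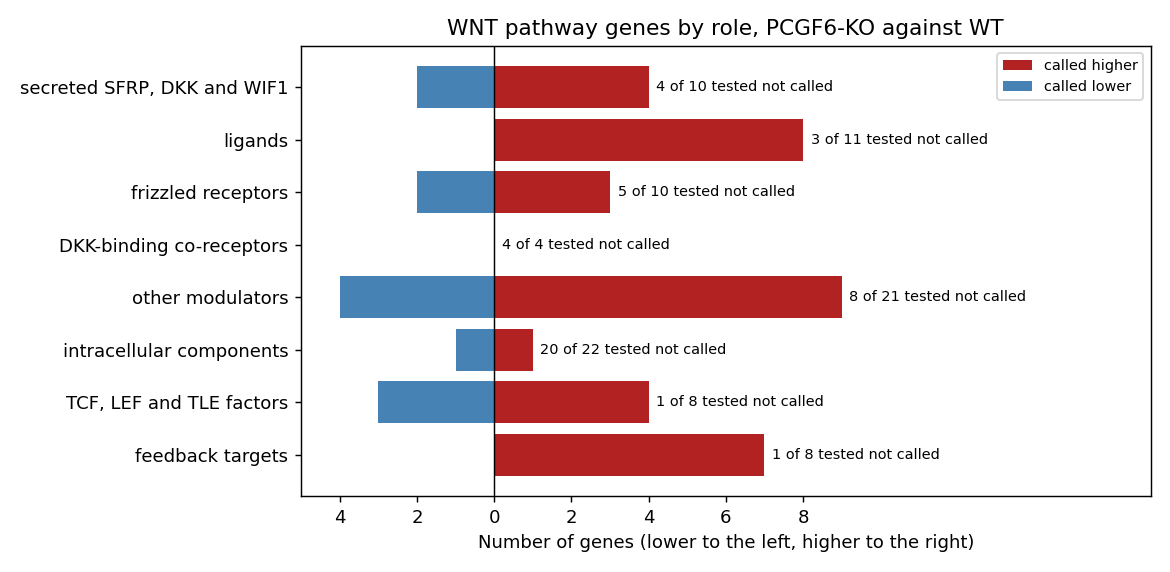
Number of genes (horizontal axis) called higher (red, to the right) and lower (blue, to the left) in PCGF6-KO against WT for the 10 secreted inhibitors and 7 role lists of other WNT pathway genes. Ligands (8 of 11) and feedback targets (7 of 8) have calls in the higher direction alone, and 20 of 22 intracellular components were not called.

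The neighbourhood of the 10 genes was described by the nearest 2 tested genes on each side in GENCODE release 44. Of these 40 genes, 9 were called higher (22.5%) and 3 lower (7.5%), where 14.9% of all tested genes were called higher and 8.70% lower. Near SFRP1, the closest neighbours GOLGA7 (179 kb away) and GINS4 (220 kb) were at −0.13 and −0.45 and not called. ZMAT4 (412 kb) was called lower at −1.65 (SE 0.32, adjusted p = 0.00361) and TCIM, 1156 kb away, higher (1 and 0 counts in WT, 15 to 42 in KO). Near SFRP2, RNF175 (29.1 kb) was called lower at −0.72 (SE 0.19, adjusted p = 0.0162), and TLR2 was not called (0.02). Near DKK4, 0 of 4 neighbours were called, including VDAC3, 14.4 kb away, at 0.16. These neighbours were not among the genes the naming rule covers and are given by position alone.

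Marker genes of other cell types moved with the groups. The summed level of 10 mesendoderm markers was 8.37 to 11.0 TPM in WT, 1226 to 1268 TPM in clone 1 and 1594 to 1595 TPM in clone 2. All 9 that were tested were called higher over both clones, and MESP1, SOX17 and HAND1 were at 0 in WT. In 5 of the 10, neither WT library had more than 3 counts. Of these 9, 5 were called higher in clone 2 than in clone 1 and 0 lower. Of 8 stromal markers, 7 were called higher and THY1 lower, with sums of 559 to 566 TPM in WT, 922 to 923 TPM in clone 1 and 987 to 1020 TPM in clone 2. DCN and LUM were at 0 in WT. Of 6 neuroectoderm markers tested out of 8, 4 were called higher and 1 lower, with sums of 320 to 358, 505 to 576 and 506 to 565 TPM. The higher sum came from NES, at 221 and 259 TPM in WT and 462 to 527 TPM in KO (log2 fold change 1.11, SE 0.09, adjusted p = 2.9e-05). OTX2 was lower, at 97.8 and 98.2 TPM in WT and 36.1 to 42.5 TPM in KO (−1.26, SE 0.07, adjusted p = 2.5e-06), and the other 6 markers were below 3 TPM in every library.

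The label of the cells as PSCs was met by their defining markers in every library. The sum of 10 pluripotency markers was 11940 to 12496 TPM in WT, 9210 to 9307 TPM in clone 1 and 8030 to 8236 TPM in clone 2. Of these, 0 were called higher and 3 lower, namely TERF1 (−1.81), DNMT3B (−1.14) and SOX2 (−0.69), and POU5F1 was at 0.01 (SE 0.07, adjusted p = 0.907). The part of such cell-type differences in the changes of SFRP1, SFRP2, SFRP4, DKK1, DKK2 and DKK4 was not tested.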

How the data were processed

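RNA-seq of 2 WT, 2 clone 1 and 2 clone 2 libraries was used, and ChIP-seq was not analysed here. Reads had been trimmed with Trim Galore (0.6.2) and aligned to GRCh38 with HISAT2 (2.1.0), and the authors deposited raw featureCounts counts per gene with gene lengths. The annotation release, strand setting and handling of multi-mapped reads are not given in the sources used here. The libraries held 15877396 to 18918609 counts, and replicates differed with a chi-square per degree of freedom of 2.53 (WT), 4.87 (clone 1) and 3.42 (clone 2), so no library repeated another.

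From these counts, edgeR (4.0.16, R 4.3.3) with filterByExpr, TMM, glmQLFit and glmQLFTest compared KO with WT, and in a fit with 3 groups each clone with WT and the clones with each other. TPM was computed from counts and lengths. Intervals and bounds cover counting error only. Alternatives tried were another tool (DESeq2, 1.42.0), scaling by RLE or upper quartiles, no filter or a minimum of 10 counts in every library, adjusted p alone, a replicate block, an average of both clones' effects, fits of the compared groups alone, and omission of each library. The genes, lists and thresholds were chosen with earlier results of these data known. Named genes were the 10 inhibitors, PCGF6, up to 3 called genes with the largest change per WNT role list, and the 3 nearest profiles of SFRP1, SFRP2 and DKK1. The co-receptor genes, LCK, TSSC2, markers and neighbours were named in addition after their values were seen. Positions are from GENCODE release 44 and promoters from RefSeq.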

Additional observations from a re-analysis of the deposited data

Results flagged for a closer look

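Of the 10 inhibitor genes, 2 were called different between the clones by edgeR's quasi-likelihood test of clone 2 against clone 1 with Benjamini-Hochberg adjustment. Among all tested genes, 3.73% were called higher in clone 2 and 4.14% lower. By adjusted p alone, without the fold threshold, 5 of the 10 differed, and 3442 of 17672 tested genes. Each knockout genotype is 1 cloned line, so an effect of the deletion and a property of the line cannot be told apart. DKK2 was higher in clone 2 by 0.86 on the log2 scale (SE 0.18, adjusted p = 8.3e-04), in 2 of 2 libraries. WIF1 was lower in clone 2, at −1.04 (SE 0.29, adjusted p = 0.0120), in 2 of 2 libraries, on 21 to 71 counts per library. This WIF1 call was lost with DESeq2 (−1.02, adjusted p = 0.140), without clone 1 replicate 2 (−0.90, adjusted p = 0.0712) and without clone 2 replicate 1 (−0.59, adjusted p = 0.252), whereas the DKK2 call was kept under each of these. PCGF6 itself was higher in clone 2 than in clone 1 by 0.90 (SE 0.15, adjusted p = 5.4e-05), and its part in these differences was not tested.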

How the results depend on the processing

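Of 504 values of the 10 genes' fold changes under the alternatives, 470 kept their direction and their side of the thresholds, 10 lost a call, 4 gained one and 20 changed sign, the last all for values that had not been called. With at least 10 counts in every library only 6 of the genes could be tested (SFRP4, DKK1, DKK2 and DKK4 could not), and 2 were called over both clones, 3 in clone 1, 2 in clone 2 and 1 between the clones. Between the clones, DESeq2 called 1 and adjusted p alone 5, and leaving out each library 1 to 3 (1 without clone 2 replicate 1, 3 without clone 1 replicate 2). Adjusted p alone called 6556 of all genes over both clones, 8002 in clone 1, 8904 in clone 2 and 3442 between the clones, against 4167, 4379, 5197 and 1390, and 61 other WNT genes in clone 1 against 40. DESeq2 called 810 genes between the clones. Sign changes: SFRP5 over both clones was −0.0392 with the replicate block and −0.43 to 0.80 when leaving out each library, −0.58 to 0.71 in clone 1, −0.72 to 0.91 in clone 2 and −0.68 to 0.75 between the clones. DKK3 in clone 1 was 0.0186 under the minimum of 10 counts per library, 0.00136 with only the groups compared and −0.0652 to 0.0652 when leaving out each library. The same ranges were −0.72 to 0.32 for WIF1 in clone 2, and between the clones −0.16 to 0.12 for SFRP1 and −0.72 to 0.15 for DKK4. The cause was not tested. Whether same-numbered libraries were prepared together is not given in the sources used here, and the main tests used no pairing. Deviations of same-numbered libraries correlated at 0.068 (WT, clone 1), 0.080 (WT, clone 2) and 0.194 (clone 1, clone 2) over 13633 genes, which cannot decide it. The replicate block called 3876 genes over both clones and changed no call among the 10. The median of all genes moved to −0.03 under upper-quartile scaling. Depth limits SFRP4, SFRP5, DKK4 and WIF1, with at most 71 counts in a library. With DESeq2 the SE over both clones was larger for SFRP4 (1.58 against 0.78), DKK1 (0.74 against 0.38) and DKK4 (1.545 against 0.95). It was smaller for SFRP2 (0.15 against 0.16).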
